A study of Rattus norvegicus with 6 samples.

Results

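Acer1 encodes an alkaline ceramidase, and it is described here together with other enzymes that make or break down ceramide and sphingosine. The members were 10 genes chosen by name: Acer1, Acer2, Acer3, Asah1, Sphk1, Sphk2, Sgpl1, Sptlc1, Sptlc2 and Ugcg. The array carried 14217 gene symbols. Among them were 8 of the members, with 14 probe sets, the units in which the array reads a transcript. Sptlc1 and Sptlc2, the subunits of serine palmitoyltransferase, matched no probe set and were not analysed here. Acer1 was put at the head of the group because of its large difference in the comparison described below. Its values, and those of the other members in the same comparison, are therefore a description and carry no test of their own.

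Both groups were GH4C1 cells, which descend from a rat pituitary tumour and secrete growth hormone and prolactin. In the R271W group (3 cultures) a lentiviral vector expressed POU1F1(R271W) from the PGK promoter, with EGFP behind an IRES, and the series title calls this form of the pituitary transcription factor a dominant negative. In the control group (3 cultures) the vector named in the design text carried EGFP alone behind the same promoter. Both were transduced at a multiplicity of infection of 5 and grown for 4 days before RNA was taken, and each culture was read on 1 Affymetrix rat array. A constitutive promoter drove the mutant in a single cell line. Both Pou1f1 probe sets read 1645 to 2399 over all 6 arrays, and whether they also read the vector's transcript was not tested. Labels call the replicates biological without saying what separated the cultures, so the spread between arrays may be partly technical.

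Ceramide is the hub of sphingolipid metabolism. It is built from serine and palmitate by serine palmitoyltransferase and the ceramide synthases, and it can be turned into sphingomyelin or, by the glucosylceramide synthase Ugcg, into glycosphingolipids. Ceramidases cut ceramide into sphingosine and a fatty acid: Asah1 does so in lysosomes, and the alkaline ceramidases do so in the endoplasmic reticulum and Golgi apparatus. Sphingosine kinases (Sphk1, Sphk2) phosphorylate sphingosine, and the lyase Sgpl1 irreversibly cleaves the product, sphingosine-1-phosphate, which is also a ligand of cell-surface receptors. Acer1 is best known from the epidermis.

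The factor POU1F1 is known to bind sites of the form TATNCAT, so the stretch of 250 bases before each annotated start was searched for this motif on both strands (TATNCAT or ATGNATA). RefSeq promoter sequences of the GRCr8 assembly held 9 such windows for 7 of the members, and Acer1, Asah1 and Ugcg had no entry. A match was present in 2 of the 9 windows, against 8.73% of all 33469 windows in the table. Both are shown, since they are the stretches of member promoters with these letters, and the capitals mark the motif.
Sphk1, plus strand, chr10:102258777-102258803: cgggttagtcATGGATAccttcgggtc
Sphk2, minus strand, chr1:105321769-105321795: tgagggacagTATTCATgggggcgtgt
The Sphk1 match begins 188 bases before 1 of its 3 annotated starts, and the Sphk2 match 148 bases before its start. Both lie inside the span of the gene, because those starts are internal. No binding was measured in these data, and a match in letters is not a site.

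Acer1 was the member that stood apart. Its probe set (1393660_at) had MAS5 signals of 18.1, 2.81 and 0.874 on the control arrays and of 164, 182 and 145 on the R271W arrays. The groups did not overlap, and the lowest R271W array was far above the highest control array. Means were 7.25 ± 9.43 (SD, n = 3) in controls and 164 ± 18.6 (n = 3) in R271W cells. The log2 fold change was 5.53 (95% interval 3.87 to 7.18), a fold of 46.1 between geometric means.

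What the R271W arrays had in common was a close level, with a coefficient of variation of 11.3%, whereas in controls the SD exceeded the mean. The size of the fold was thus set by dim control signals. Leaving out control replicate 1, the brightest control, gave a fold of 104, and leaving out control replicate 3, the dimmest, gave 22.9. With signals floored at 3.72, the 20th percentile of all signals, the log2 fold change was 4.69, and with that value added to every signal it was 4.27. The direction was the same under all 16 alternatives in which the probe set was fitted. They could hardly reverse it, with 145 as the lowest R271W signal and 18.1 as the highest control signal, so this adds no support. RNA came from whole cultures, so more cells with the transcript and more transcript per cell cannot be told apart. In controls its mean lay below the signal filter (11.2), so it entered the fit through the R271W arrays.

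**Figure D1:**
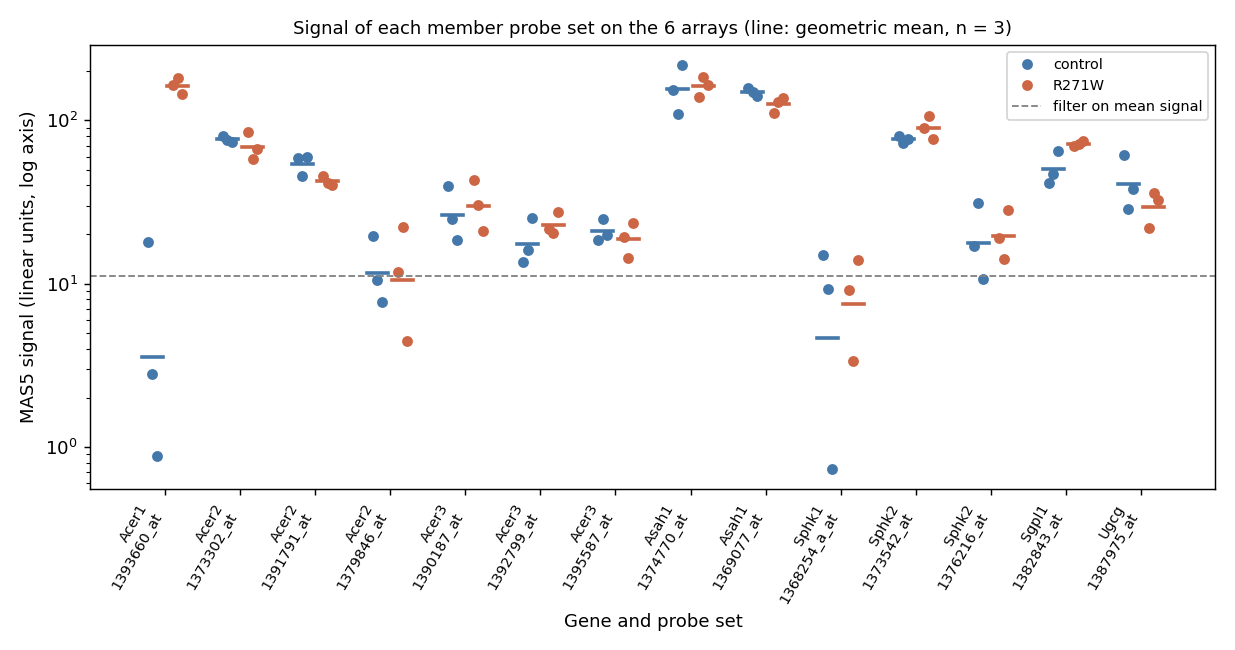
MAS5 signal (log axis) of each of the 14 member probe sets on the 6 arrays, with control arrays in blue, R271W arrays in orange, a line at each group's geometric mean and a dashed line at the filter of 11.2. Acer1 is the member whose groups are far apart, at 0.874 to 18.1 in controls and 145 to 182 in R271W cells.

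**Figure D2:**
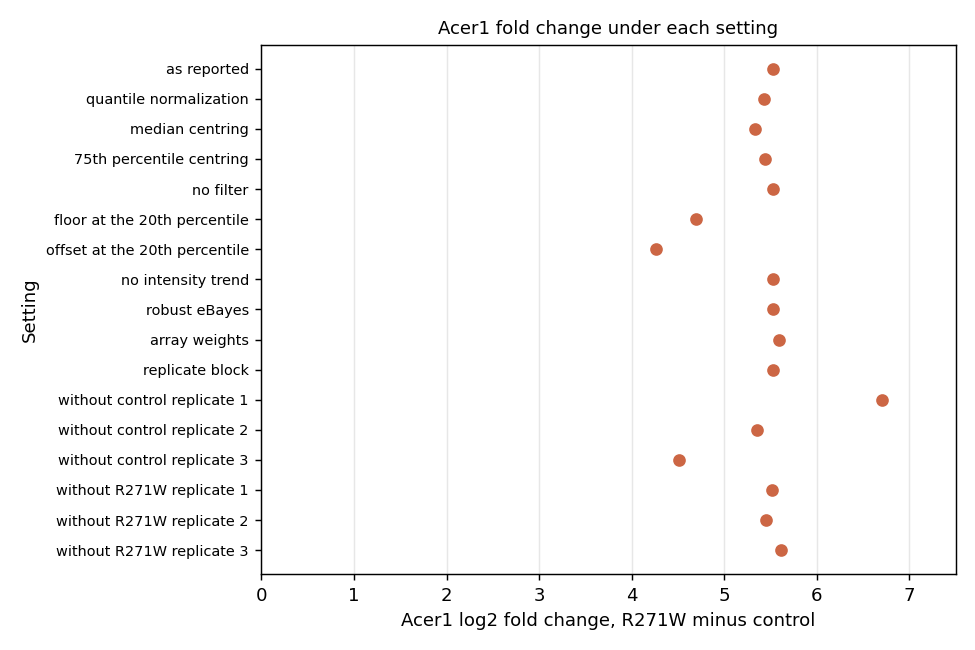
Log2 fold change of Acer1 as reported and under each alternative setting, from 4.27 with an offset added to 6.70 without control replicate 1. Every point lies to the right of 0, and the spread comes from settings that alter the dim control signals.

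The other alkaline ceramidases did not share this pattern on these arrays. Acer2, a Golgi enzyme, had 3 probe sets. The first of them (1373302_at) read 80.6, 75.8 and 73.4 in controls and 85.3, 58.1 and 66.4 in R271W cells, and these ranges overlapped. Its log2 fold change was -0.15 (95% interval -0.55 to 0.25). Another (1391791_at) read 58.5, 45.9 and 59.95 in controls and 45.8, 41.2 and 40.4 in R271W cells, which gave -0.36 on the log2 scale (interval -0.84 to 0.11). There the R271W arrays lay just below the controls, the closest pair being 45.8 and 45.9. The remaining Acer2 probe set (1379846_at) was dim, between 4.43 and 22.2 over the 6 arrays, and stayed under the filter.

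Acer3, an alkaline ceramidase of the endoplasmic reticulum and Golgi apparatus, had 3 probe sets whose groups all overlapped. The first (1390187_at) read 39.8, 24.9 and 18.5 in controls and 43.2, 30.2 and 20.9 in R271W cells, a log2 fold change of 0.19 (95% interval -0.63 to 1.01). The second (1392799_at) read 13.5, 16.0 and 25.2 in controls and 21.7, 20.3 and 27.5 in R271W cells, a log2 fold change of 0.38 (interval -0.50 to 1.27). For the third (1395587_at) the signals were 18.5, 25.1 and 19.98 against 19.4, 14.4 and 23.6, which gave -0.17 on the log2 scale (interval -1.04 to 0.71). The probe sets of Acer3 thus differed in sign, each with an interval that spanned 0. The sign of the first turned to -0.009 and -0.008 under quantile normalization and median centring.

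Asah1, the lysosomal acid ceramidase, was read by a pair of probe sets. One (1369077_at) gave 159, 149 and 142 in controls and 111, 130.4 and 138 in R271W cells, so every R271W array was below every control. Its log2 fold change was -0.25 (95% interval -0.53 to 0.03). The other (1374770_at) scattered more, with 154, 110.1 and 219 in controls and 139, 184 and 165 in R271W cells, which gave 0.06 on the log2 scale (interval -0.37 to 0.50). Under median centring, which moves every log2 change by about -0.20, the first read -0.45 and passed the threshold, and the second read -0.14.

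The sphingosine kinases gave no separation between the groups. Sphk2, the kinase found largely in the nucleus and mitochondria, read 80.2, 73.2 and 76.5 in controls and 90.1, 105.8 and 76.6 in R271W cells on its first probe set (1373542_at). R271W replicate 3 lay among the controls, and the log2 fold change was 0.23 (95% interval -0.13 to 0.60). Its other probe set (1376216_at) ranged from 10.7 to 31.1 in controls and from 14.1 to 28.1 in R271W cells, a log2 fold change of 0.14 (interval -0.93 to 1.20) that turned to -0.06 under median centring. Sphk1, the mainly cytosolic kinase, lay under the filter, at 14.9, 9.33 and 0.731 in controls and 9.14, 3.36 and 13.9 in R271W cells. These arrays gave no usable comparison for Sphk1.

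Sgpl1, the lyase that ends the pathway, had the largest difference after Acer1 among the tested members. Its probe set (1382843_at) read 41.3, 46.9 and 65.2 in controls and 69.7, 72.2 and 74.7 in R271W cells. All R271W arrays lay above all controls, though control replicate 3 came close to them. The log2 fold change was 0.52 (95% interval 0.07 to 0.98). It was 0.33 under median centring and ran from 0.38 to 0.71 when single arrays were left out, and it passed the adjusted threshold in none of these fits.

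Ugcg, the glucosylceramide synthase, read 61.6, 28.8 and 37.8 in controls and 21.9, 36.2 and 32.5 in R271W cells (1387975_at). The groups overlapped, control replicate 1 was the highest, and the log2 fold change was -0.46 (95% interval -1.18 to 0.26). Without control replicate 1 it was -0.16.

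As a group, 12 member probe sets of 7 genes passed the signal filter. Of these 1 was called higher, that of Acer1, which was chosen for its difference, so that its call is no result for the group. Among the 11 others 0 were called in either direction by limma at an adjusted p under 0.05. Over all 18625 tested probe sets 15.8% were called (8.57% higher, 7.22% lower). Of the 11 other than Acer1, 6 read above 0 and 5 below, from -0.46 to 0.52 on the log2 scale, and 1 of them (Sgpl1) had an unadjusted p under 0.05. Their intervals reached from -1.18 (Ugcg) to 1.27 (Acer3, 1392799_at), so the data leave room for changes of about that size on those probe sets. Groups did not overlap for 4 of the 12, but Acer1 was chosen for its difference, and its separation is no result for the group. Without overlap among the 11 others were Sgpl1, higher, and 1 probe set each of Acer2 and Asah1, lower. Over all tested probe sets 33.9% had no overlap (19.7% higher, 14.2% lower). The share of calls that were higher was 54.3% over all probe sets, 36.9% with 75th percentile centring and 18.9% with median centring.

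**Figure D3:**
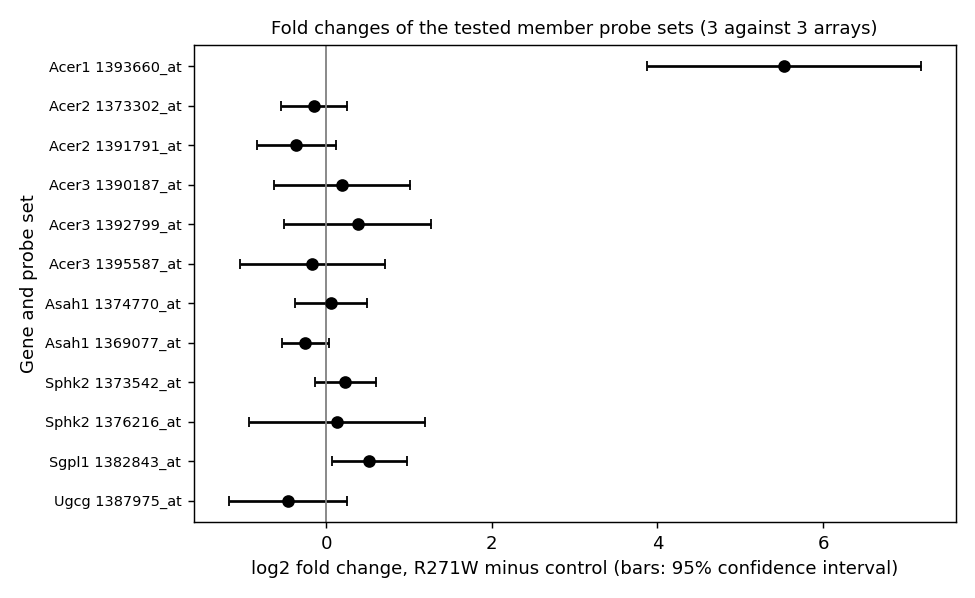
Log2 fold change, R271W minus control, of the 12 tested member probe sets, with 95% confidence intervals from the fit over all probe sets (3 against 3 arrays). Acer1 lies at 5.53, and the other points lie between -0.46 and 0.52.

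The arrays themselves differed in ways that touch dim and moderate signals. Median signals were 22.4 to 22.9 on control arrays and 25.5 to 26.9 on R271W arrays. Hybridisation spikes read 0.23 higher on the log2 scale in R271W cells, and the 3' to 5' ratio of the beta-actin control probe sets went from 1.81 to 1.82 in controls to 1.86 to 2.06, while that of GAPDH overlapped. Their part in the small differences was not tested. Cell identity matched the label, with Prl at 3006 to 4522 and Gh1 at 5588 to 7287 over the 6 arrays. Prl fell in R271W cells (log2 fold change -0.45, limma adjusted p = 0.00048), as did both Pou1f1 probe sets (-0.35 and -0.33, adjusted p = 0.00339 and 0.00486). Because Acer1 is known from skin, 5 epidermal genes (Krt5, Krt14, Krt1, Loricrin and Ivl) were read as well. Their summed signal was 54.7 to 59.3 in controls and 45.2 to 63.0 in R271W cells, and no single signal exceeded 40.6. Krt1 was the 1 of the 5 that passed the filter, at 31.8 to 40.6 in controls and 11.2 to 31.5 in R271W cells, lower without overlap (log2 fold change -1.09, limma adjusted p = 0.0957, not past the threshold). Krt5, Krt14, Loricrin and Ivl lay under the filter and were not tested, and Krt5 was higher without overlap, at 0.903 to 2.88 in controls and 8.28 to 23.7 in R271W cells. Leukocyte genes (Ptprc, Cd68) summed to 12.5 to 24.7 and 8.26 to 28.2, and other pituitary hormone genes with S100b to 82.5 to 112 and 81.9 to 121. Of the fibroblast and endothelial markers, Col1a1 and Pecam1 never exceeded 16.7, and Dcn fell, with 2674 to 2854 in controls and 1170 to 1244 in R271W cells. The part of these markers in the values above was not tested.

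Genes with a profile like that of Acer1 were sought among 2099 other called genes, by the distance between log2 signals centred on their mean over the 6 arrays. Such genes are close because they were called and changed steeply, so no test applies. The closest was Plek, which encodes pleckstrin, at a distance of 2.16, with 30.7, 2.91 and 4.72 in controls and 196, 146 and 194 in R271W cells. Next came Tox, an HMG-box factor gene, at 3.37, with 10.6, 4.30 and 2.27 in controls and 53.0, 36.8 and 34.2 in R271W cells. A dimmer Tox probe set, not tested, read 1.38 to 3.25 and 10.4 to 14.8.

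Yipf2, Akap6 and Pigp followed at distances of 4.21, 4.52 and 4.72. Akap6 encodes an anchoring protein for protein kinase A, and Pigp a subunit of the enzyme that starts glycosylphosphatidylinositol anchor synthesis. Their log2 fold changes were 2.26, 2.25 and 2.30. The other Pigp probe set was far brighter and read 1109, 1024 and 1019 against 948, 1013 and 1225, a log2 fold change of 0.01 (limma adjusted p = 0.964). Akap6 likewise had another probe set, at 0.51 (adjusted p = 0.396). As with Acer1, all 5 had at least 1 control array under a signal of 5. In controls the mean log2 signals of Plek, Tox, Yipf2 and Pigp lay below the filter. These probe sets too entered the fit through the R271W arrays, while the control mean of Akap6 lay above the filter.

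**Figure D4:**
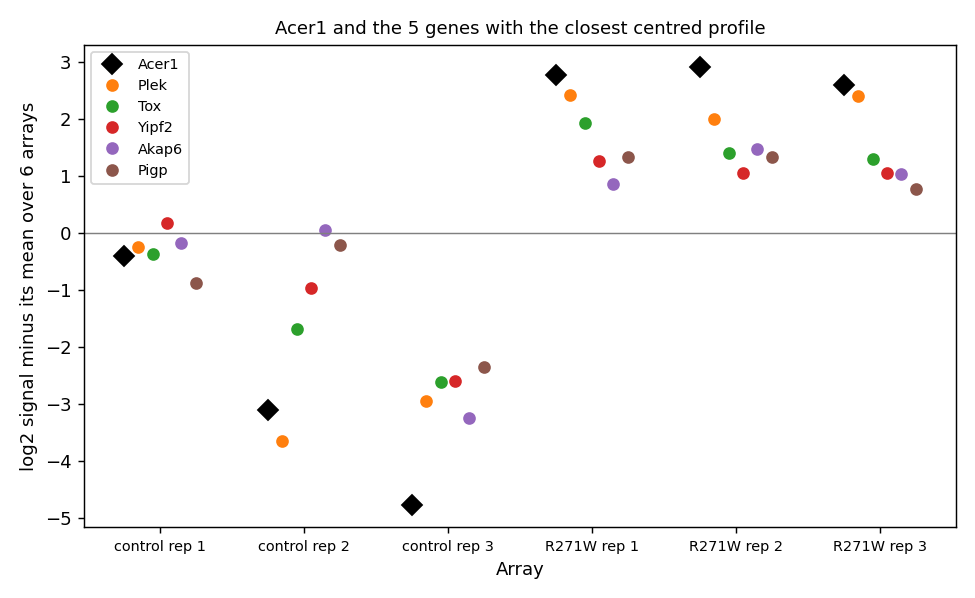
Log2 signal minus its mean over the 6 arrays for Acer1 (diamonds) and the 5 called genes with the closest profile, by array. R271W arrays lie above control arrays for all 6 genes, and control replicate 3 is the lowest point for all but Plek.

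The wider pathway was read from a list of 65 other genes of sphingolipid metabolism and signalling, of which 54 had a probe set and 40 passed the filter. Of these 40 genes, 4 rose and 3 fell (limma adjusted p under 0.05), which is 17.5%, against 18.9% of all 10143 tested genes (9.87% higher, 8.98% lower). Their median log2 fold change was 0.16, against 0.06 over all genes. It became -0.03 under median centring, where the median over all tested probe sets went from 0.07 to -0.13.

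A pair of ceramide synthases was called in opposite directions. Cers5 read 635, 617 and 720.1 in controls and 457, 476 and 487 in R271W cells, and Cers6 read 141, 172 and 143 against 229, 209 and 198. Both enzymes attach long acyl chains such as palmitate to the sphingoid base. Groups were apart for each, with every R271W array below the controls for Cers5 and above them for Cers6. Cers5 fell (log2 fold change -0.47, SE 0.09, adjusted p = 0.00218) and Cers6 rose (0.48, SE 0.12, adjusted p = 0.0158). Cers2 read -0.05 with overlap and did not pass. Degs1, the dihydroceramide desaturase, was lower without overlap but did not pass (log2 fold change -0.22, limma adjusted p = 0.103). Its dimmer probe sets read -0.43 without overlap and -0.09 with overlap, neither past the threshold.

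Among genes of sphingomyelin turnover 1 of 7 fell and 0 rose, where 8.98% of all tested genes fell and 9.87% rose. Smpdl3b, a membrane-anchored relative of the sphingomyelinases, read 160, 211 and 170 in controls and 92.0 ± 7.27 (SD, n = 3) in R271W cells, where the lowest array read 85.9. The groups were well apart, and it fell by 0.96 on the log2 scale (SE 0.14, adjusted p = 0.000556). Smpd1, the lysosomal acid sphingomyelinase, and Sgms1, a sphingomyelin synthase, read -0.15 and -0.21 without passing.

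Glycosphingolipid synthesis had 1 of 4 tested genes that fell and 0 that rose, against 8.98% and 9.87% of all tested genes. B4galt5, which makes lactosylceramide from the product of Ugcg, read 153, 135 and 133 in controls and 80.3, 97.8 and 84.8 in R271W cells, again without overlap (log2 fold change -0.68, SE 0.14, adjusted p = 0.0055). Another B4galt5 probe set never exceeded 4.88 and was not tested. In glycosphingolipid breakdown 1 of 10 rose and 0 fell, against 9.87% and 8.98% of all tested genes. Arsa, the lysosomal arylsulfatase that removes sulfate from sulfatide, read 138, 90.5 and 101 against 152, 179 and 173 (0.64, SE 0.16, adjusted p = 0.0157). A second Arsa probe set also rose, from 59.3 ± 6.19 (SD, n = 3) to 91.7 ± 8.70 (0.63, adjusted p = 0.0258).

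Downstream of sphingosine-1-phosphate, 2 of 4 tested genes rose and 0 fell, where 9.87% of all tested genes rose and 8.98% fell. Plpp1 was lower without overlap but did not pass (log2 fold change -0.365, limma adjusted p = 0.0749), and Plpp2 read 0.219 with overlap. Under quantile normalization, median centring and 75th percentile centring Plpp1 was called lower. Aldh3a2, the aldehyde dehydrogenase that oxidises the fatty aldehyde released by the Sgpl1 reaction, read 204, 187 and 173 in controls and 342, 309 and 253 in R271W cells. Its groups did not overlap, and it rose by 0.67 on the log2 scale (SE 0.12, adjusted p = 0.00251). Plpp3, a surface phosphatase of lipid phosphates, read 33.6, 32.9 and 39.3 against 47.7, 73.8 and 79.4 (0.89, SE 0.25, adjusted p = 0.025). A dimmer Plpp3 probe set read 0.69 without passing (adjusted p = 0.269). The dimmest, not tested, read 1.36 to 2.21 in controls and 3.145 to 8.31 in R271W cells.

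The receptors of sphingosine-1-phosphate were dim. S1pr2 read 19.9, 39.97 and 13.2 in controls and 47.8, 32.4 and 37.8 in R271W cells, with overlap (0.83, adjusted p = 0.183), and its other probe set read -0.15. S1pr5 ranged from 7.29 to 21.6 over all arrays. S1pr1 and S1pr3 never exceeded 7.48 and were not tested. None of the 2 tested receptor genes passed by limma. Nor did any of the 4 tested genes of the first steps (Sptssa, Ormdl2, Ormdl3, Kdsr) or the 5 of ceramide phosphorylation and transfer. Over all tested genes 18.9% passed. In these lists 0 genes had an unadjusted p under 0.05. Asah2, the neutral ceramidase, was below 12 on every array and not tested.

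The 7 calls depended in part on scaling, on the variance model and, among those that rose, on single arrays. Under median centring only Aldh3a2 rose, and Degs1, Plpp1, Smpd1 and Sptssa joined those that fell. Without the intensity trend 0 rose, and B4galt5 and Smpdl3b fell. The number that rose was 2 without control replicate 1, 2 or 3 or without R271W replicate 2, whereas Aldh3a2, Cers5, B4galt5 and Smpdl3b kept their calls without any single array. Where leaving out a single array ended a call, the adjusted p was up to 0.0616 for Cers6, 0.0682 for Arsa and 0.0983 for Plpp3. Under median centring it was 0.121, 0.0756 and 0.0698 for these genes, and without the trend 0.0812, 0.0999 and 0.0724. Quantile normalization also ended the call of Plpp3 (limma adjusted p = 0.067), while Hexa was called higher and Plpp1 lower. With the median over all tested probe sets of a gene, 3 rose and 3 fell.

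**Figure D5:**
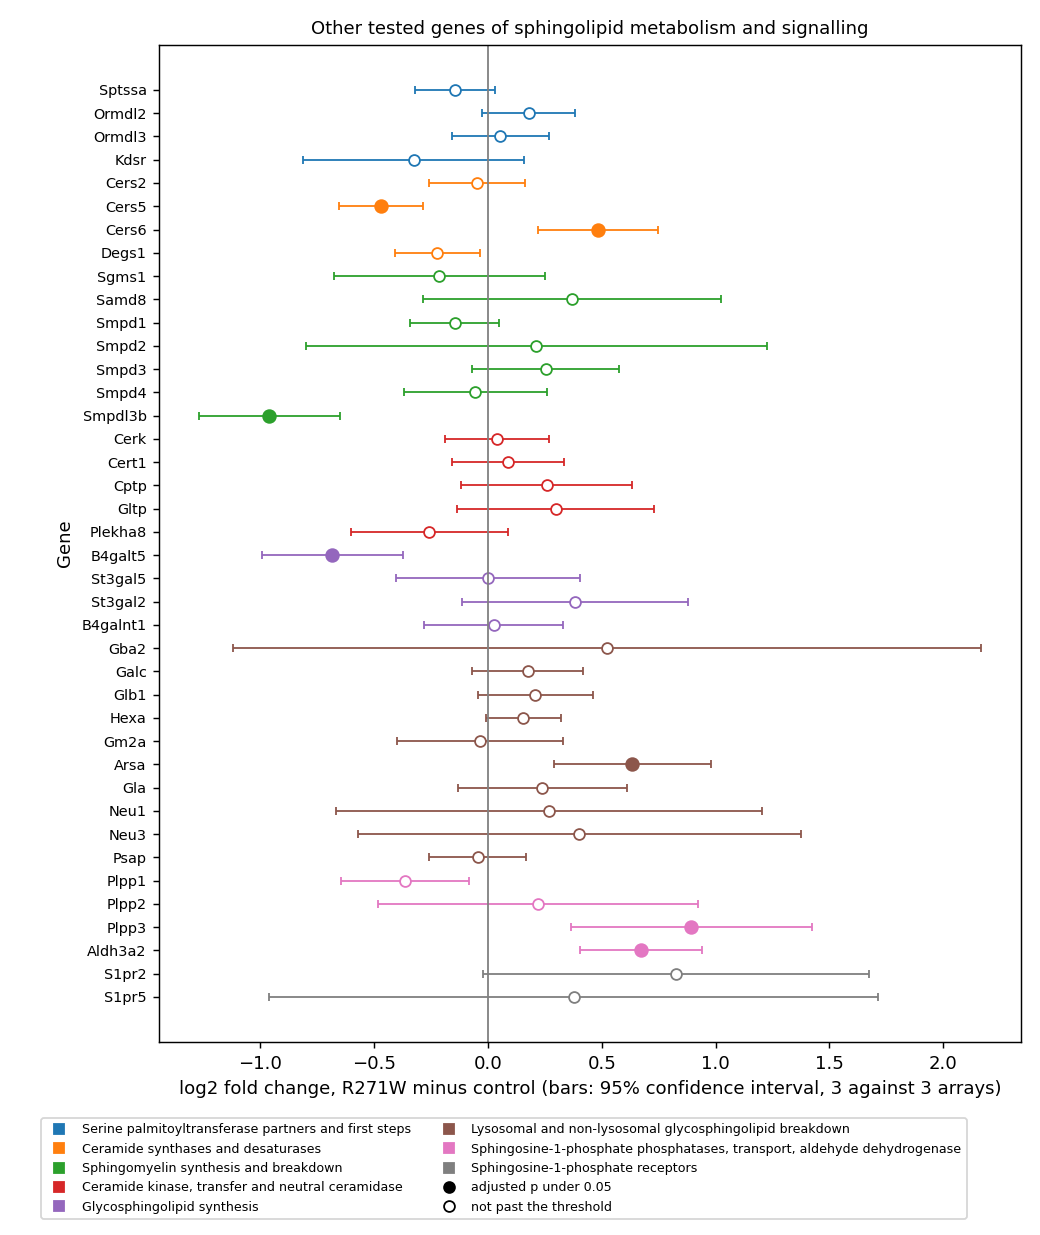
Log2 fold change, R271W minus control, with 95% confidence intervals, of the 40 other tested sphingolipid genes, coloured by step, with filled points for an adjusted p under 0.05 (3 against 3 arrays). The 7 filled points are Cers5, Smpdl3b and B4galt5 below 0 and Cers6, Arsa, Plpp3 and Aldh3a2 above 0, between -0.96 and 0.89.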

How the data were processed

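The authors deposited 1 intensity value per probe set and array, a MAS5 signal on a linear scale, per the submitters' processing notes. No source used here states its version or detection calls. On every array the mean, after 2% was trimmed from both ends, was 100. Signals were converted to log2 and compared by a two-sided linear model (limma 3.58.1 under R 4.3.3, eBayes using an intensity trend), with Benjamini-Hochberg adjustment over 18625 probe sets at or above the 40th percentile of mean log2 signal (a signal of 11.2). Control probe sets (57) were left out. Symbols came from a platform annotation updated by Entrez ID through RefSeq: 20826 probe sets had 1 symbol, 436 several and 9780 none. For a gene outside the members, its brightest probe set on average was used. The script was tested on simulated data.

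The members and lists were chosen with earlier results of these data known. Named were all members, the called genes of each other list, the receptors, and the 5 called genes nearest to Acer1, with provisional symbols skipped. Other genes of those lists, and the marker genes, are named as examples. Alternatives were other scalings, filters, a floor or offset for dim signals, robust eBayes or eBayes lacking the trend, weighting of arrays, a replicate block, gene medians and leaving out each array. Figures used matplotlib 3.10.9. The number of arrays limits the precision.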

Additional observations from a re-analysis of the deposited data

How the results depend on the processing

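With 3 arrays a group and dim signals for several members, moderate changes could be missed. Acer1, chosen for its difference, kept its direction in all 16 alternatives that fitted it, which its wide gap between groups made hard to avoid. A filter at the 60th percentile left it out, so that 0 member probe sets were called higher. Median centring called 1 member probe set (Asah1) lower. Of 182 values of other members under alternatives, 167 kept sign and side, 1 passed and 14 turned sign. The filters, the floor, robust eBayes, eBayes lacking the trend and the replicate block left each of these log2 changes as it was. No sign could turn there, so the 167 do not measure stability. The cause of the turns was not tested. Asah1 (1374770_at) turned to -0.003, -0.135 and -0.02 under quantile normalization, median and 75th percentile centring, Sphk2 (1376216_at) to -0.046 and -0.062 and Acer3 (1390187_at) to -0.009 and -0.008 under the first and second of these. Without single arrays these ran from -0.183 to 0.314, -0.233 to 0.537 and -0.071 to 0.487, and Acer3 (1395587_at) from -0.335 to 0.024. Over all probe sets 730 were higher and 3132 lower under median centring, 634 and 431 without the intensity trend, and 999 to 1350 higher and 947 to 1330 lower without single arrays. Other sphingolipid genes called were 1 higher and 7 lower under median centring, 5 lower under 75th percentile centring, 0 higher without the trend, and 2 to 3 higher without single arrays. With a replicate block the counts were 1 member higher, 0 lower, and 4 and 3 other genes. Same-numbered arrays deviated from their group means with correlations of -0.002, 0.01 and -0.02, so no shared effect of the replicate number was visible. Whether same-numbered cultures were handled together is not given by the labels.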
